A study of Arabidopsis thaliana with 6 samples.

Results

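The genes described here encode MYB domain proteins, plant transcription factors that carry the MYB DNA-binding repeat. They are the protein-coding genes of the deposited table whose description names a myb domain protein. The description matched 123 genes, of which 6 were left out by identifier, and 117 of the 38194 genes in the table remained. RNA was sequenced from whole seedlings of Arabidopsis thaliana, collected 7 days after stratification and grown on sucrose medium in cycles of 16 h light and 8 h dark. The 2 groups were wild-type Col-0 and an sqtl1 RNAi line in the Col-0 background, each with 3 biological replicates. An RNAi line carries a transgene whose RNA lowers the transcripts of its target. The labels give neither the identifier of the RNAi target nor the promoter of the construct, so the knock-down was not analysed here, and whether the line is 1 transformant was not stated.

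A MYB repeat folds into a helix-turn-helix in which regularly spaced tryptophans form the core, and most plant MYB proteins have a pair of such repeats, called R2 and R3. Proteins of this family switch on or off the genes of flavonoid, lignin, suberin, wax and glucosinolate synthesis. Others set the fate of epidermal cells, act in the response to abscisic acid or, in the MYB3R branch, control genes of cell division. A pair of tryptophans at the distance typical of a repeat, followed at a like distance by a tryptophan or another bulky residue, was found in the translated coding sequence of 116 of the 117 members. The exception was AT3G27340, described without a number, and it is given below by its identifier.

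Levels are RPKM, reads scaled to the length of the gene and to the mapped reads of the library. Changes are log2 fold changes of RPKM + 1 in the RNAi line over Col-0, a scale that understates the change of weakly expressed genes. They were tested with limma over the 19458 genes that averaged 1 RPKM or more across the libraries, and a change was called at a Benjamini-Hochberg adjusted p under 0.05. The p-values weigh the difference between the groups against the spread among the 3 replicates, with a single variance per gene for both groups. That spread was wider in the RNAi line, with a median SD of log2 of 0.134 over the tested members, beside 0.0789 in Col-0. A library held an estimated 38.0 M to 49.8 M reads.

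The RNAi line differed from Col-0 across the transcriptome, with 52.6% of all tested genes called. Summed levels of 5 shoot green tissue markers were 27900 to 29900 RPKM in Col-0 and 13400 to 19900 RPKM in the RNAi line. Those of 4 seed markers were 0.09 to 1.47 RPKM and 16.3 to 101.0 RPKM, and all 4 were called higher. The meristem gene STM rose by 2.30 log2 units. Markers of root, shoot and xylem were present in every library, and the 4 flower markers summed to 0.47 to 0.67 RPKM in Col-0 and 0.78 to 0.99 RPKM in the RNAi line. Of these AP1 was listed at 0 in every library. In whole seedlings, fewer cells of a type and less RNA per cell cannot be told apart. The replicates of the RNAi line were not alike: the third lay nearest to the Col-0 mean for 66.7% of all called genes, and for 22 of the 37 called members.

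Of the 117 MYB genes, 64 reached the mean of 1 RPKM and 53 did not. Of the 64 tested, 13 were higher in the RNAi line, 24 were lower and 27 were not called. The 37 calls are 57.8% of the tested members, beside 52.6% of all tested genes. Higher calls made up 20.3% of members and 25.2% of all genes, and lower calls 37.5% and 27.5%. The 3 values of one group lay apart from the 3 of the other in 38 tested members, 59.4%, beside 64.1% of all genes. The median change was -0.084 log2 units over the tested members and -0.008 over all tested genes. The median size of the change regardless of direction was 0.348 and 0.247 log2 units.

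**Figure D1:**
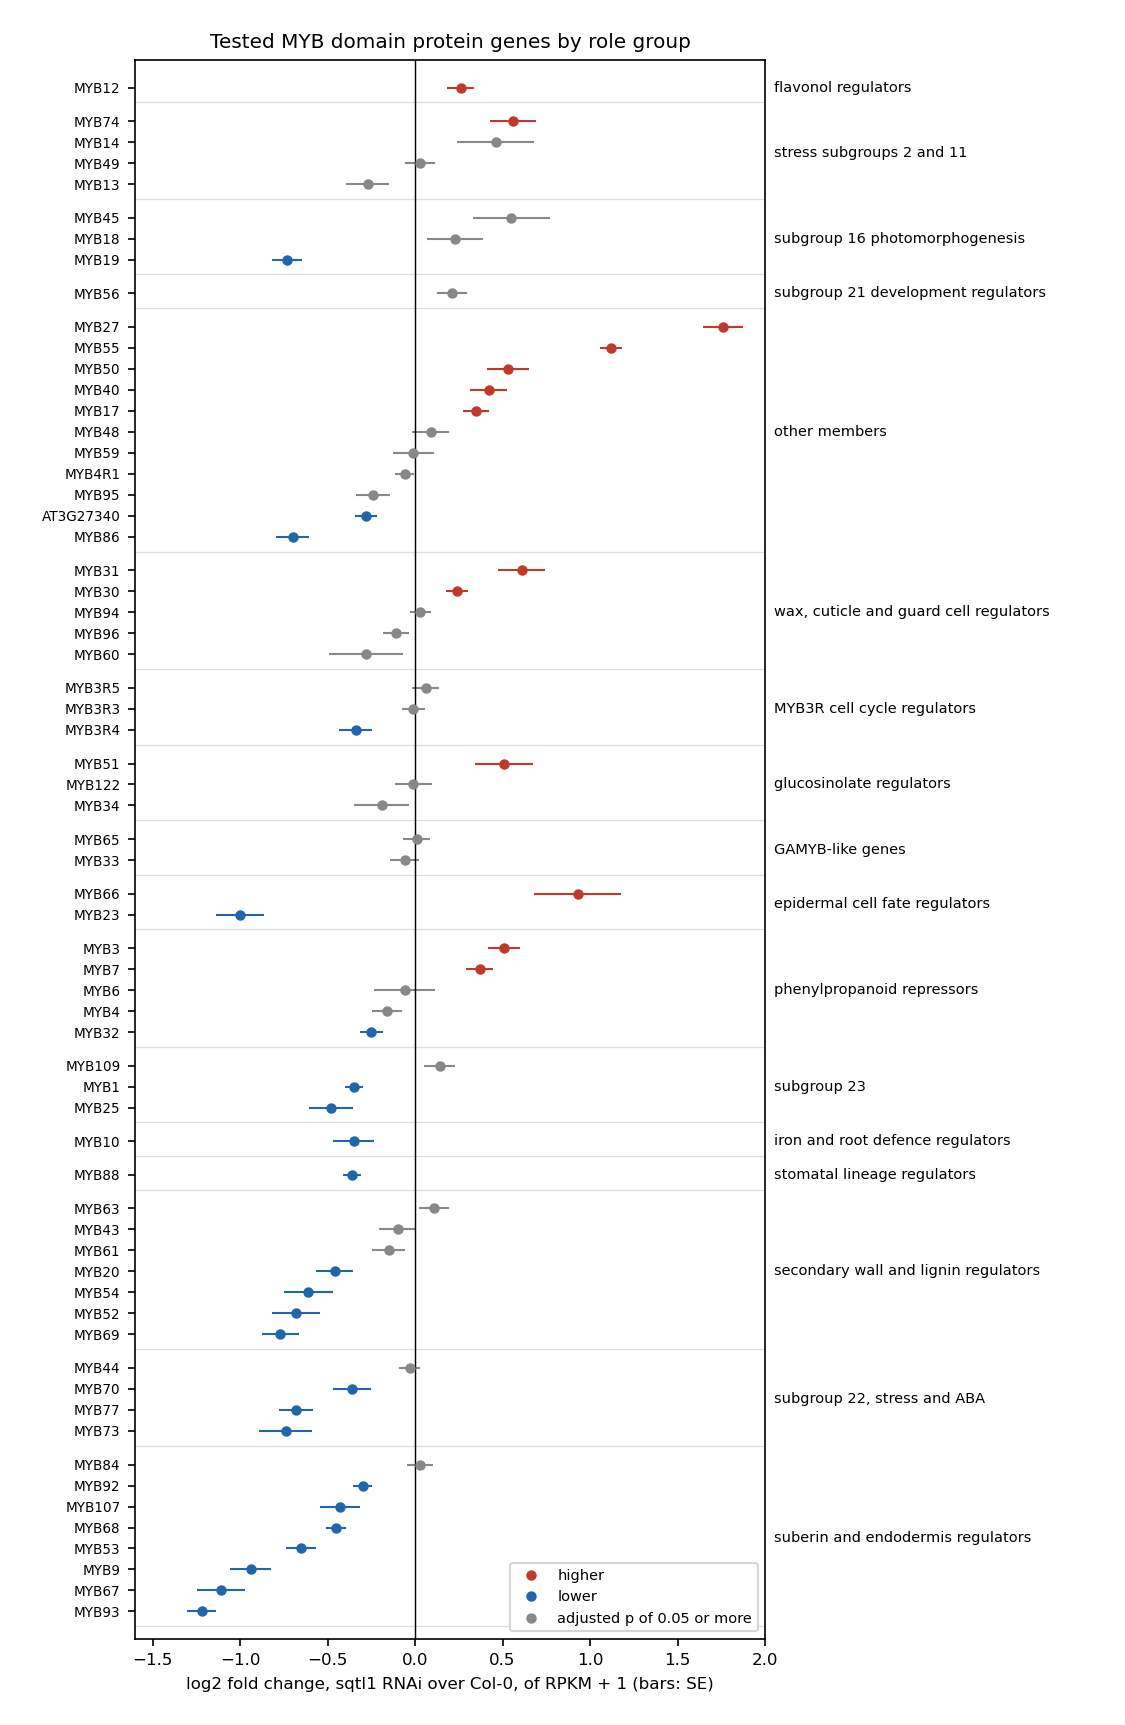
The log2 fold change of each tested MYB gene (RNAi line over Col-0, RPKM + 1) by role group, with called and not called genes told apart. All 7 called suberin and endodermis genes lie below 0, and so do all called genes of the secondary wall group and of subgroup 22. In some other groups, such as the phenylpropanoid repressors, called genes lie on both sides.

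The balance between higher and lower calls rested on the scaling of the libraries. Scaling every library to the same total raised the median change of all genes by 0.149 log2 units. With that scaling 16 members were higher and 17 lower, so 48.5% of the called members were higher in place of 35.1%. Over all genes, that share went from 47.8% to 68.8%, since 39.8% were then higher and 18.0% lower. Of the 37 called members, 30 were called under both scalings. MYB3R4, MYB10, MYB32, MYB70, MYB92, MYB107 and AT3G27340 lost the call with equal totals, and MYB45, MYB56 and MYB109 gained it. The sign of 9 small changes that were not called turned as well (MYB6, MYB33, MYB43, MYB44, MYB59, MYB96, MYB122, MYB3R3 and MYB4R1). The count of higher members also fell when single libraries were left out: leaving out Col-0 replicate 3 left 8, and so did leaving out RNAi replicate 2. Over all genes, higher calls fell from 4894 to 3515 and 3544 in these fits, so calls were lost across the transcriptome.

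The MYB genes differed in level by far more than the line changed them. The mean over the 6 libraries was 55.9 RPKM for MYB59 and 47.1 RPKM for MYB44, and 12 of the 117 members reached 10 RPKM. At the other end, 21 members had fewer than 3 estimated reads in every library. Called changes exceeded 1 log2 unit in 4 members: MYB27 and MYB55 rose, and MYB93 and MYB67 fell. MYB23, which is -1.0 after rounding, lay just short of it.

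**Figure D2:**
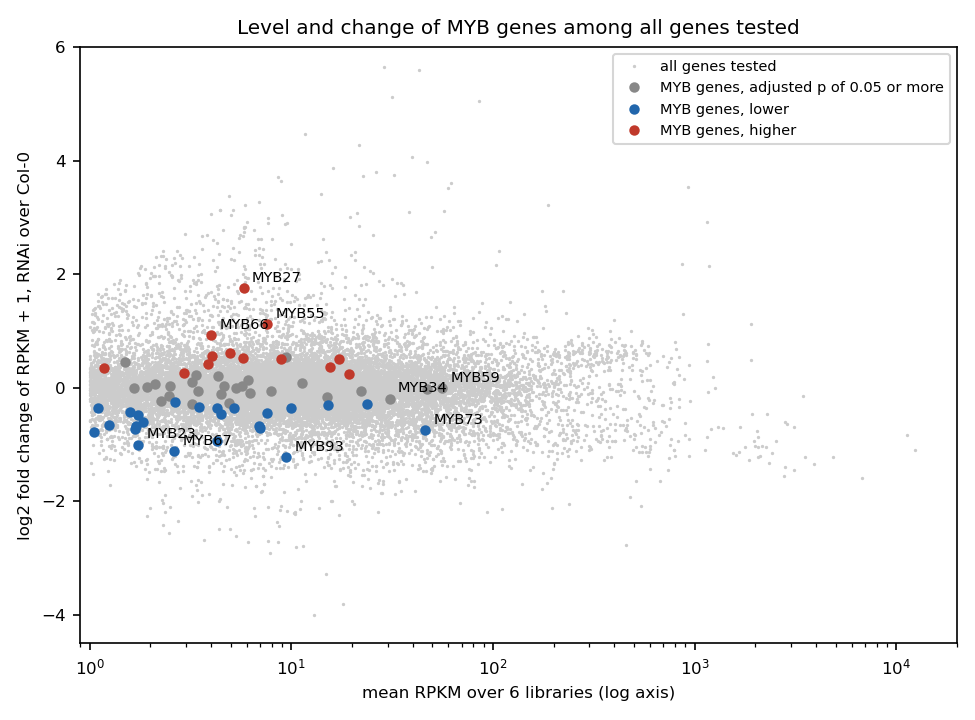
The mean level of each tested MYB gene over the 6 libraries (log axis, RPKM) against its log2 fold change of RPKM + 1. The changes beyond 1 log2 unit, those of MYB27, MYB55, MYB93 and MYB67, belong to genes well below the level of MYB59 or MYB44.

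Most tested MYB genes of a group placed around the root endodermis and its suberin were lower in the RNAi line. Suberin is the waxy polyester laid down around endodermal cells, and MYB9, MYB39, MYB41, MYB53, MYB92, MYB93 and MYB107 are known to promote its synthesis or to be expressed where it forms. The wider group also takes in MYB37, MYB67, MYB68, MYB84 and MYB87, which are not among these. Of its 12 members, 8 were tested and 7 were lower, beside 27.5% of all tested genes. The groups and gene lists used here and below were chosen with earlier results of these data known. The median change was -0.55 log2 units, beside -0.008 over all genes. Of the 7 suberin genes named, MYB39 and MYB41 stayed below the filter, and the other 5 were lower with a median of -0.65.

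MYB93, expressed in the endodermis over young lateral roots, had the largest fall among all members on the scale of log2(RPKM + 1). With a pseudocount of 0.1 in place of 1, the weaker genes MYB23 (-1.57), MYB67 (-1.55) and MYB69 (-1.45) fell more than MYB93 (-1.36). MYB93 measured 13.90, 13.17 and 13.70 RPKM in Col-0 and 5.92, 4.57 and 5.32 RPKM in the RNAi line. The groups lay far apart, 2.58-fold, with a log2 fold change of -1.22 (SE 0.0843, limma adjusted p = 0.000236). The gene is AT1G34670, on chromosome 1 from 12709090 to 12710665 of the RefSeq assembly TAIR10.1.

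MYB67 (AT3G12720), grouped here by its place in the family, was at 3.37, 3.71 and 4.78 RPKM in Col-0 and 1.06, 1.19 and 1.63 RPKM in the RNAi line. The lowest Col-0 value was thus above the highest RNAi value, and the change was -1.11 log2 units (SE 0.137, limma adjusted p = 0.00118). MYB9 (AT5G16770), a regulator of suberin in roots and seed coat, went from 5.60, 6.18 and 6.01 RPKM to 3.32, 2.19 and 2.41 RPKM. Its change was -0.94 log2 units (SE 0.118, limma adjusted p = 0.00123). MYB9 and MYB107 were each highest, among the RNAi libraries, in replicate 1. So were MYB93 and MYB53 of this group, while MYB67, MYB68 and MYB92 were not.

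The smaller falls in this group ran from -0.30 log2 units for MYB92 to -0.65 for MYB53. MYB92 was the most abundant suberin gene of the family, with 16.8 ± 0.718 RPKM in Col-0 and 13.5 ± 0.494 RPKM in the RNAi line (SD, n = 3). MYB53 fell from 1.75 ± 0.140 to 0.757 ± 0.115 RPKM (SD, n = 3). MYB68, a gene of the root pericycle, fell by 0.45 log2 units. MYB84, a relative of MYB68, was at 0.03 log2 units and was not called (limma adjusted p = 0.793). The call of MYB107, at -0.43 log2 units, was lost when Col-0 replicate 2 or 3 or RNAi replicate 2 was left out (limma adjusted p = 0.0623, 0.0723 and 0.0672). With equal totals it was lost as well (limma adjusted p = 0.0535), as was that of MYB92 (limma adjusted p = 0.101).

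**Figure D3:**
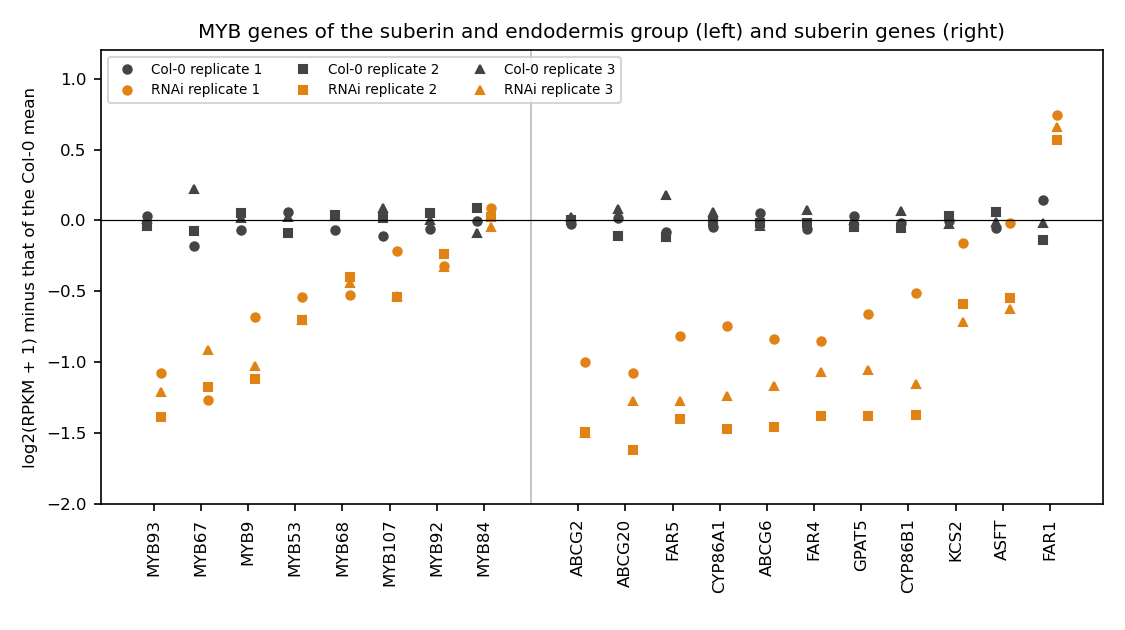
The log2(RPKM + 1) of each library minus that of the Col-0 mean. The 8 tested MYB genes of the suberin and endodermis group are on the left and 11 suberin synthesis and export genes on the right. For MYB93 all RNAi points (4.57 to 5.92 RPKM) lie below all Col-0 points (13.17 to 13.90 RPKM).

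Most of the listed genes that make and export suberin were lower too. Of 11 listed genes all were tested and 9 were lower, beside 27.5% of all tested genes. The median of the 11 was -1.10 log2 units. The largest falls were those of the exporter genes ABCG2 (-1.33) and ABCG20 (-1.32) and of FAR5 (-1.16), a fatty acyl reductase. FAR1, another reductase of the list, rose by 0.66 log2 units. Root markers beside these values were mixed: SHR and SCR were higher, while BGLU21 and the endodermal genes CASP1 and CASP2 were lower. The 6 markers together measured 3680 to 3880 RPKM in Col-0 and 2820 to 4100 RPKM in the RNAi line. Nearly all of that sum was PYK10 (mean 3580 RPKM in Col-0 and 3290 RPKM in the RNAi line), which was not called, so the sum says little of the other markers. The part of the root markers in the result was not tested.

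Both pairs of close relatives among the suberin genes share a stretch of promoter. MYB9 and MYB107 are 77.3% identical in coding sequence, and MYB53 and MYB92 69.2%. Among 6786 pairs of member promoters of 250 bases, the median score of a local alignment was 15 and the 99th percentile 27. MYB9 and MYB107 scored 58 (77 of 93 aligned positions identical), and MYB53 and MYB92 57 (74 of 87). The promoters are shown because they are the upstream regions most alike among the lower members. Each line holds the 250 bases before the annotated start, 5′ to 3′, from TAIR10.1, with the bases identical to the partner in capitals.
MYB9: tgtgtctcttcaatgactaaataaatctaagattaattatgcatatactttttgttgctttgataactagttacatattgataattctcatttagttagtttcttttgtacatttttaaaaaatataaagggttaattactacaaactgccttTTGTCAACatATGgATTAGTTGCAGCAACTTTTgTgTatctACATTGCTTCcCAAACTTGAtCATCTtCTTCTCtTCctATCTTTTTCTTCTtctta
MYB107: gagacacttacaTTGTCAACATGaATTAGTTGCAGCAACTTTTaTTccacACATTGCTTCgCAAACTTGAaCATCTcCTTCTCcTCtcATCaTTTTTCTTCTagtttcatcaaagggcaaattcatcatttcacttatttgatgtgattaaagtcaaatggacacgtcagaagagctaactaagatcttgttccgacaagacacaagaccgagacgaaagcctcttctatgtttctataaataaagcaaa
MYB53: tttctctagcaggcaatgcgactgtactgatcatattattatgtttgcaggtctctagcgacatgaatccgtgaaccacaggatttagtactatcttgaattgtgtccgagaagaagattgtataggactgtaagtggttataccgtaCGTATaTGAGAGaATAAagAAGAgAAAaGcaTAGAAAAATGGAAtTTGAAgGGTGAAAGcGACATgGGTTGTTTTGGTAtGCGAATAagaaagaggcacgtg
MYB92: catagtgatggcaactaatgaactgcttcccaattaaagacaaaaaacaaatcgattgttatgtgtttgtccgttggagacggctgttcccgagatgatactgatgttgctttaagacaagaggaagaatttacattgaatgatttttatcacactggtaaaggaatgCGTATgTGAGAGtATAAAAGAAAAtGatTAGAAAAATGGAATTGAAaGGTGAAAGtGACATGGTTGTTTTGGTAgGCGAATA
MYB9 and MYB107 lie on the plus strand of chromosomes 5 and 3, and MYB53 and MYB92 on that of chromosome 5. The shared stretch of MYB9 and MYB107 lies at positions -97 to -6 from the start of MYB9 but at -238 to -149 from that of MYB107. The G-box CACGTG was searched on both strands. It ends the MYB53 window and is in 6.49% of 27443 promoters of this length, in 3 of the 24 lower members and in 1 of the 13 higher ones. The overlapping sequence ACGTGNC of the abscisic acid response element is in 8.57% of promoters, in 3 of the lower members and in 3 of the higher ones. The MYB core CNGTTA is in 26.6% of promoters, in 8 of the lower members and in 2 of the higher ones. These matches describe letters and not binding. Promoter likeness often came without a call among the pairs that scored highest. MYB100 and MYB22, with the top score of 116, were below the filter, as were MYB114 and MYB90 (77) and MYB117 and MYB105 (60). MYB48 and MYB59 (82) and MYB94 and MYB96 (56) were not called. MYB84 was not called while MYB68 was lower (43).

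Among the regulators of secondary walls, the thick lignified walls of xylem and fibres, 7 of 15 members were tested. Of these 4 were lower, beside 27.5% of all tested genes. The median of the 7 was -0.46 log2 units, beside -0.008 over all genes. MYB69, a gene of developing secondary walls, measured 1.6, 1.31 and 1.86 RPKM in Col-0 and 0.49, 0.44 and 0.63 RPKM in the RNAi line. The groups did not overlap, and the change was -0.77 log2 units (SE 0.106, limma adjusted p = 0.00177). This gene is close to the filter, and without Col-0 replicate 1 or 3 its mean fell below 1 RPKM, so it was not tested there.

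MYB52 and MYB54, a pair with coding sequences 70.5% identical, fell together. MYB52 went from 1.89, 2.46 and 2.57 RPKM to 1.39, 0.78 and 1.04 RPKM, a change of -0.68 log2 units (SE 0.136, limma adjusted p = 0.00662), and MYB54 changed by -0.61. MYB20, an activator of lignin synthesis, changed by -0.46. MYB61, MYB43 and MYB63 were not called. The switches at the top of the cascade, MYB46 and MYB83, were below the filter. Of 11 genes that build the secondary wall, 3 were lower and 2 higher, beside 27.5% and 25.2% of all tested genes, so these counts are near the background. PAL4 (-0.89 log2 units), CESA4 (-0.51) and IRX9 (-0.41) fell, IRX9 without a call with equal totals (limma adjusted p = 0.0512), and CAD5 and IRX14, named after their values were seen, rose by 0.38 and 0.31. Summed xylem markers were 24.2 to 25.4 RPKM in Col-0 and 15.8 to 18.3 RPKM in the RNAi line. Most of that sum was XCP1 and XCP2 (means 11.0 and 10.8 RPKM in Col-0), which were lower. The markers IRX3 and VND7 were not called and below the filter, respectively. The part of the xylem markers in these values was not tested.

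The subgroup of MYB44, genes induced by stress, abscisic acid and auxin, was lower in 3 of its 4 members, beside 27.5% of all tested genes. It was lower in 2 with equal totals and with no filter. MYB73 was the most abundant of the members that changed. It stood at 59.19, 57.06 and 55.79 RPKM in Col-0 and at 26.95, 33.57 and 42.81 RPKM in the RNAi line. Every RNAi library was below every Col-0 library, with replicate 3 nearest to Col-0, and the change was -0.74 log2 units (SE 0.153, limma adjusted p = 0.00737).

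MYB77, which acts with auxin response factors in lateral root growth, went from 8.44, 8.83 and 8.77 RPKM to 4.32, 5.02 and 5.89 RPKM. Its change was -0.68 log2 units (SE 0.096, limma adjusted p = 0.00186), with the same order of the RNAi libraries. MYB70 changed by -0.36 log2 units, a call that was lost without Col-0 replicate 1, 2 or 3 or RNAi replicate 2 (limma adjusted p = 0.0977, 0.0723, 0.0753 and 0.0737) and with equal totals (0.0978). MYB44, whose product represses genes of abscisic acid signalling and promotes stomatal closure, was at 47.7 RPKM in Col-0 and 46.6 RPKM in the RNAi line and was not called (limma adjusted p = 0.653).

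MYB27 had the largest rise of all members. It measured 2.37, 1.71 and 2.2 RPKM in Col-0 and 9.51, 10.76 and 8.28 RPKM in the RNAi line. All RNAi libraries were above all Col-0 libraries, 4.55-fold in the means, and the change was 1.76 log2 units (SE 0.117, limma adjusted p = 0.000221). The gene is AT3G53200, on chromosome 3 from 19718253 to 19719507.

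MYB50, MYB55, MYB61 and MYB86, close relatives in the family tree that were set side by side after their values were seen, did not move together. MYB55 (AT4G01680) rose from 4.32, 4.61 and 4.34 RPKM to 10.61, 11.58 and 10.15 RPKM, a change of 1.12 log2 units (SE 0.0622, limma adjusted p = 0.000134). MYB50 rose from 4.53, 4.77 and 4.21 RPKM to 8.13, 7.35 and 5.63 RPKM, 0.53 log2 units (SE 0.121, limma adjusted p = 0.0106). MYB86 fell from 8.20, 9.72 and 8.78 RPKM to 5.80, 4.57 and 4.92 RPKM, -0.70 log2 units (SE 0.0941, limma adjusted p = 0.00155).
For each of these 3 genes the groups did not overlap. MYB61, known for its role in stomatal closure and mucilage, was at -0.15 log2 units and was not called. The coding sequences of MYB55 and MYB86 are 57.3% identical, and the deposited multiple-mapping ratio of all 4 genes was 0.

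**Figure D4:**
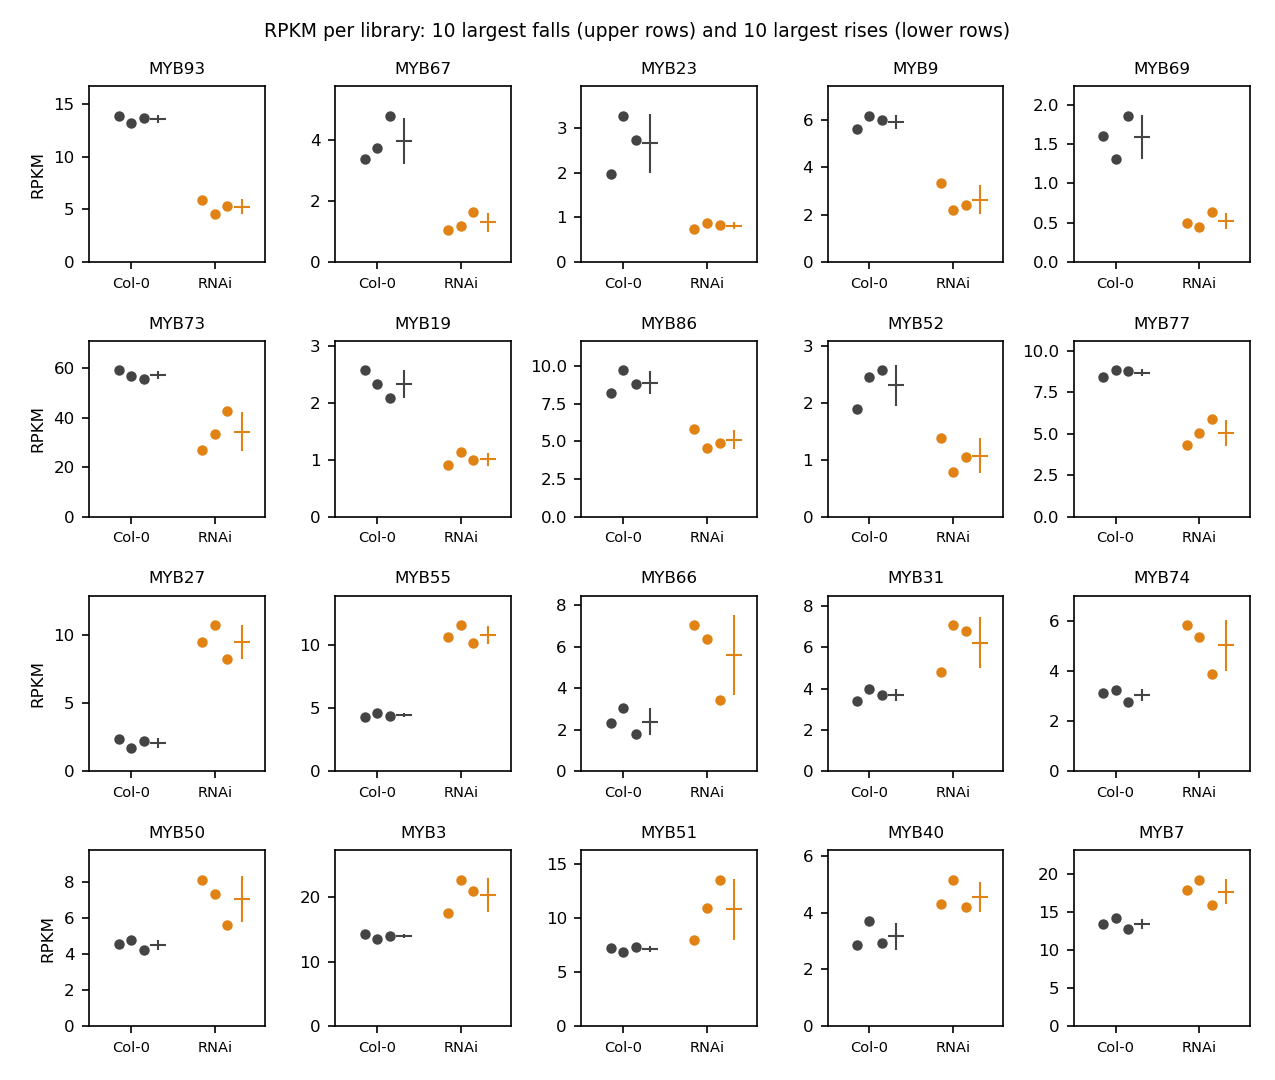
RPKM in each library for the MYB genes with the largest called rises and falls, with points for the 3 replicates of each group. For MYB27 the RNAi points lie between 8.28 and 10.76 RPKM and the Col-0 points between 1.71 and 2.37 RPKM.

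Of 4 regulators of epidermal cell fate 2 were tested, of which 1 was lower and 1 higher. Over all tested genes, 27.5% were lower and 25.2% higher. MYB5 and MYB82 were below the filter. MYB23, which promotes trichome formation and acts with GLABRA1, fell from 1.96, 3.27 and 2.73 RPKM to 0.73, 0.88 and 0.82 RPKM. The change was -1.0 log2 units (SE 0.138, limma adjusted p = 0.00174). MYB66, called WEREWOLF, marks root cells that will not form hairs, and it went from 2.34, 3.06 and 1.79 RPKM to 7.05, 6.38 and 3.43 RPKM. Its groups did not overlap, but RNAi replicate 3 was close to Col-0, and the change was 0.93 log2 units (SE 0.248, limma adjusted p = 0.0192). That call was lost without Col-0 replicate 1, Col-0 replicate 3 or RNAi replicate 2 (limma adjusted p = 0.0611, 0.0691 and 0.0681). All 4 root hair markers were not called, with sums of 22.0 to 26.2 RPKM in Col-0 and 20.3 to 42.8 RPKM in the RNAi line.

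MYB88, which limits the divisions of the stomatal lineage, fell slightly but evenly. It was at 6.07, 6.08 and 5.72 RPKM in Col-0 and 4.36, 4.36 and 4.57 RPKM in the RNAi line (-0.36 log2 units, SE 0.0522, limma adjusted p = 0.00207). The 4 guard cell lineage markers summed to 6.58 to 7.88 RPKM in Col-0 and 1.34 to 2.38 RPKM in the RNAi line. Of these TMM and EPF2 were lower, FAMA was not called (limma adjusted p = 0.0639) and SPCH was below the filter. The part of these markers in the fall of MYB88 was not tested. MYB60, expressed in guard cells, was at -0.28 log2 units and was not called (limma adjusted p = 0.30).

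Wax regulators were either higher or not called. MYB31, a wax activator close to MYB30 and MYB96, went from 3.41, 3.97 and 3.70 RPKM to 4.81, 7.09 and 6.80 RPKM. The groups were apart, with 0.61 log2 units (SE 0.133, limma adjusted p = 0.00906). MYB30, an activator of very-long-chain fatty acid synthesis, rose by 0.24 log2 units. This call was lost without Col-0 replicate 2, Col-0 replicate 3 or RNAi replicate 2 (limma adjusted p = 0.0707, 0.0653 and 0.0632). MYB94 and MYB96, which activate wax genes in drought, were at 0.03 and -0.11 log2 units. Of 9 wax synthesis genes tested, 3 were lower and 2 higher, beside 27.5% and 25.2% of all tested genes. These counts are near the background. CER1 had -1.21 log2 units, a call lost with no filter (limma adjusted p = 0.0922), CER2 0.89 and CER4 -0.48.

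Repressors of phenylpropanoid synthesis, relatives of MYB4 that carry a repression motif, split in direction. MYB3 rose from 14.23, 13.60 and 13.92 RPKM to 17.53, 22.75 and 20.98 RPKM (0.51 log2 units, SE 0.0928, limma adjusted p = 0.00449). MYB7 rose from 13.39, 14.12 and 12.76 RPKM to 17.86, 19.21 and 15.86 RPKM (0.37 log2 units, SE 0.0781, limma adjusted p = 0.00830). Neither gene overlapped between the groups. MYB32 was at -0.25 log2 units, a call that was lost without Col-0 replicate 1 or 2 or RNAi replicate 2 (limma adjusted p = 0.0726, 0.0685 and 0.0516) and with equal totals (0.139). MYB4 and MYB6 were not called.

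MYB12, an activator of flavonol synthesis, went from 2.60, 2.76 and 2.37 RPKM to 3.62, 3.20 and 3.04 RPKM. The change of 0.26 log2 units (SE 0.0782, limma adjusted p = 0.0298) was lost without Col-0 replicate 1 or 3 or RNAi replicate 1 or 2 (limma adjusted p = 0.0777, 0.105, 0.0618 and 0.0713). Its partners in the subgroup, MYB11 and MYB111, were below the filter. Of 6 flavonol genes only FLS1, the flavonol synthase, was called, at -1.01 log2 units (limma adjusted p = 0.0412), beside 52.6% of all tested genes. FLS1 lost the call with equal totals (limma adjusted p = 0.0716) and with no filter (0.141), and with equal totals UGT78D2, named after its values were seen, was called higher instead, at 0.90 log2 units (0.0359). The anthocyanin activators MYB90, MYB113 and MYB114 were below the filter, with MYB90 at 0.23, 0.10 and 0.01 RPKM in the RNAi libraries. Genes of the family left out by identifier were not analysed here. Of 4 late anthocyanin genes 3 were higher, beside 25.2% of all tested genes. GSTF12 rose by 2.53 log2 units, DFR by 2.34 and LDOX by 2.18. LDOX was not called with no filter (limma adjusted p = 0.0588). These genes varied across the RNAi replicates, as GSTF12 measured 31.14, 16.37 and 6.75 RPKM there and at most 2.24 RPKM in Col-0. The MYB proteins act in a complex with bHLH proteins and TTG1, and of these partners TT8 rose by 1.5 log2 units and EGL3 by 0.29, while TTG1 changed by -0.30.

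Among regulators of glucosinolates, the defence compounds of the cabbage family, MYB51 was higher. It measured 7.22, 6.79 and 7.26 RPKM in Col-0 and 7.90, 10.93 and 13.51 RPKM in the RNAi line. RNAi replicate 1 was close to Col-0, and the change was 0.51 log2 units (SE 0.167, limma adjusted p = 0.0387). This call was lost without Col-0 replicate 1, 2 or 3 (limma adjusted p = 0.0946, 0.109 and 0.0923) or RNAi replicate 2 (0.107). MYB34 and MYB122, which activate the same indole branch, were not called, at -0.19 and -0.01 log2 units. Of 8 indole glucosinolate genes, CYP79B3 (-0.45) and UGT74B1 (-0.32) were lower and the other 6 were not called. That count is near the background, as 27.5% of all tested genes were lower. UGT74B1 lost the call with equal totals (limma adjusted p = 0.105).

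MYB3R proteins bind the mitosis-specific activator element in promoters of genes expressed at the transition from G2 to mitosis. MYB3R4, an activator, went from 3.96, 3.98 and 4.05 RPKM to 2.66, 2.71 and 3.55 RPKM. RNAi replicate 3 was nearest to Col-0, and the change was -0.34 log2 units (SE 0.0944, limma adjusted p = 0.0231). It was lost without Col-0 replicate 1, 2 or 3 (limma adjusted p = 0.0663, 0.0675 and 0.0749) or RNAi replicate 2 (0.0803), and with equal totals (0.0687). MYB3R3 and MYB3R5, which repress the same genes, were not called, at -0.01 and 0.06 log2 units.
All 8 listed genes of the G2 to mitosis phase were lower, beside 27.5% of all tested genes, with a median of -0.65 log2 units. KN, the syntaxin of the cell plate, changed by -0.82, CDC20.1 by -0.81 and HIK by -0.69. The medians and calls of this list describe the same seedlings, and the link from MYB3R4 to these genes was not tested.

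GAMYB-like genes are the targets of the microRNA miR159, which keeps MYB33 and MYB65 low in vegetative tissue. All 7 members of the group hold a site in the coding sequence that pairs with miR159a at a penalty of at most 3.5, counting 1 for a mismatch and 0.5 for a G:U pair. Such sites were found in 24 of 27444 protein-coding genes, 0.0875%. The microRNA and 3 of the sites are shown because pairing sets this group apart within the family. In the microRNA the capitals mark the seed, and in the sites, which are written in the sense of the gene, the bases that pair with it by Watson-Crick rules.
miR159a: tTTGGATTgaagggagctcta
MYB33 and MYB65: TgGAGCTCCCTTCAtTCCAAt
MYB101: TAGAGCTtCCTTCAAaCCAAA
MYB97: atGAGCTCtCTTCAAaCCAAA
The MYB33 site lies on chromosome 5 from 1839579 to 1839599, plus strand, and the MYB65 site on chromosome 3 from 3604151 to 3604171, plus strand. The MYB101 site is on chromosome 2 from 13783168 to 13783188, minus strand, and that of MYB97 on chromosome 4 from 13528587 to 13528607, plus strand.

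Only MYB33 and MYB65 of this group reached the filter, and neither was called. MYB33 was at 8.49, 7.36 and 8.36 RPKM in Col-0 and 6.92, 7.82 and 8.42 RPKM in the RNAi line. The groups overlapped, with -0.06 log2 units (SE 0.0844, limma adjusted p = 0.589). MYB65 was at 0.01 log2 units. MYB101, below the filter, had means of 0.143 RPKM in Col-0 and 0.673 RPKM in the RNAi line. It was called higher with no filter (limma adjusted p = 0.0423). Of the miR159 precursor transcripts, MIR159B was not called. It measured 11.41, 11.84 and 13.71 RPKM in Col-0 and 13.37, 9.04 and 9.80 RPKM in the RNAi line (limma adjusted p = 0.285). MIR159A was below the filter, with means of 0.07 RPKM in Col-0 and 0.407 RPKM in the RNAi line. It was not called with no filter (limma adjusted p = 0.122). Mature microRNAs were not measured by this assay.

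Sites for 2 other microRNAs of this family of targets were also common. A site for miR828 was found in 7 members, beside 13 of 27444 genes in all, and a site for miR858a in 18 members, beside 35 genes. Members with such sites were found among the higher, the lower and the untested genes. The MYB9, MYB53 and MYB92 coding sequences hold a miR828 site and so does that of MYB30, which rose. MYB93 and MYB20, which fell, hold a miR858a site, and so do MYB12, MYB17 and MYB40, which rose. A few sites are shown for members described above. Capitals are used as above, and miR828 and miR858a are written with their seeds in capitals.
miR828: tCTTGCTTaaatgagtattcca
MYB9: TGGAAcACaCATTTgAGaAAGA
MYB53: TGGAATACTCATTTgAagAAaA
MYB92: TGGAAcACTCATTTgAagAAGA
MYB30: TGGAAcACTCATTTgAagAAGA
miR858a: tTTCGTTGtctgttcgacctt
MYB93: AAGGTCGtACAGAtAAtGAgA
MYB12: cAGGgaGAACAGACAACGAAA
The MYB9, MYB53 and MYB92 sites start on chromosome 5 at 5515931, 26068797 and 3233273, the MYB30 site on chromosome 3 at 10912206, the MYB93 site on chromosome 1 at 12709615 and the MYB12 site on chromosome 2 at 19478416, all on the plus strand. MYB13, MYB63 and MYB34, which were not called, also hold a miR858a site. The precursor transcripts of miR828 and miR858 were below the filter.

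Of the stress genes related to MYB13 and MYB74, 1 of 4 tested was higher, beside 25.2% of all tested genes. This count is near the background. MYB74, induced by salt, went from 3.11, 3.25 and 2.76 RPKM to 5.83, 5.34 and 3.87 RPKM, with no overlap and 0.56 log2 units (SE 0.132, limma adjusted p = 0.0123). The call was lost with no filter (limma adjusted p = 0.0528). MYB13, MYB14 and MYB49 were not called. MYB14 was at 0.46 log2 units with RNAi values of 2.68, 2.07 and 1.01 RPKM, the last of which lay within the Col-0 range.

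MYB19, of the subgroup of LAF1 that acts in light responses, fell from 2.57, 2.33 and 2.09 RPKM to 0.90, 1.13 and 1.00 RPKM. The change was -0.73 log2 units (SE 0.0862, limma adjusted p = 0.00104) and the groups did not overlap. Its relatives went the other way without a call, MYB18 at 0.23 log2 units and MYB45 at 0.55 (limma adjusted p = 0.0748). MYB18 and MYB19 are 69.1% identical in coding sequence.

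MYB25, related to MYB1 and MYB109, measured 2.1, 2.2 and 2.2 RPKM in Col-0 and 1.03, 1.11 and 1.74 RPKM in the RNAi line. Its change of -0.48 log2 units (SE 0.123, limma adjusted p = 0.0171) was lost without Col-0 replicate 1, 2 or 3 (limma adjusted p = 0.0503, 0.0571 and 0.0588) or RNAi replicate 2 (0.0619). MYB1 was at -0.35 log2 units and was called, and MYB109 at 0.14 was not. MYB10, needed with MYB72 for growth on little iron, went from 1.22, 1.40 and 1.43 RPKM to 0.78, 0.65 and 1.15 RPKM. That change of -0.35 log2 units (SE 0.116, limma adjusted p = 0.0434) was lost without any of the Col-0 replicates (limma adjusted p = 0.0753, 0.119 and 0.129), without RNAi replicate 1 (0.0839) or 2 (0.130) and with equal totals (0.0845). MYB72 was below the filter.

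MYB40 measured 2.85, 3.71 and 2.94 RPKM in Col-0 and 4.30, 5.17 and 4.2 RPKM in the RNAi line. Its change of 0.42 log2 units (SE 0.106, limma adjusted p = 0.0166) was lost without Col-0 replicate 1 or 3 or RNAi replicate 2 (limma adjusted p = 0.0621, 0.0635 and 0.0555). MYB4R1, at -0.06 log2 units, had groups that lay apart without a call (limma adjusted p = 0.337), and MYB48, MYB59 and MYB95 were not called either. MYB17, which acts with LEAFY in the switch to flowering, was higher by 0.35 log2 units. MYB56, a gene of the subgroup with developmental roles, was at 3.77, 4.27 and 3.79 RPKM in Col-0 and 5.30, 4.24 and 4.65 RPKM in the RNAi line, which overlap (limma adjusted p = 0.0780). AT3G27340, the member without the tryptophan spacing, was at -0.28 log2 units and lost its call with equal totals (limma adjusted p = 0.152). Without it, 63 members were tested and 23 were lower.

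The 53 members below the filter include all genes of the stamen, pollen and gametophyte groups: MYB21, MYB24 and MYB57 of stamens, MYB80 of the anther, and the relatives of MYB115 and MYB118 in female gametophyte and embryo. The 6 genes related to MYB2 and MYB108, which respond to stress and senescence, were also below it. In 15 of the 117 members no library exceeded 0.01 RPKM. When all 38194 genes were tested with no filter, 25.5% were called, 12.7% higher and 12.9% lower. Of the 53, 7 were then called. MYB117, a gene of organ boundaries, was higher at 1.38 RPKM in the mean, beside 0.460 in Col-0 (limma adjusted p = 0.00361), and MYB101 and MYB79 were higher at means under 1 RPKM. MYB39, a suberin gene, was lower at 0.480 RPKM beside 1.36 (limma adjusted p = 0.00442), and MYB5, MYB47 and MYB71 were lower from means under 1 RPKM.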

How the data were processed

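The 6 libraries were polyA-selected, strand-specific and sequenced as paired ends, per the labels' protocols. The submitters' processing notes name Trimmomatic 0.39, Bowtie2 2.2.6 and the build TAIR10; no counting tool or annotation is named there. The authors deposited 1 table of RPKM values per gene and library, with gene length and a multiple-mapping ratio per gene, a fraction between 0 and 1; 5 of its 38199 lines name no gene and were left out. They carry no identifier and hold summary values of the columns, such as the lowest and the highest. RPKM is already scaled to mapped reads, so no count test was run. From the deposited RPKM, log2(RPKM + 1) was tested with limma 3.58.1 in R 4.3.3, using a trended prior, over genes that averaged 1 RPKM or more, with Benjamini-Hochberg adjustment over all 19458 genes. Members and gene lists were chosen with earlier results of these data known. Every member may be named; all 6 values are given for the 10 largest called rises and falls without overlap and for the largest change of each role group, and at most 3 called genes are named from each other list.

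Reads per library were estimated from the steps of the RPKM values of genes under 0.4 kb, of which 61.3% to 65.5% lay within 0.0055 RPKM of a step. This is an approximation, and no count test was run on it. The floor of 3 reads covers counting error only. Data with 19125 genes were simulated, of which 200 were set to change, with a fixed spread in each group. The test called 12 of 49 genes changed 1.25-fold, 44 of 50 changed 1.5-fold, 50 of 50 changed 2-fold and 10 of 18927 unchanged genes. In the real data 52.6% of tested genes were called, far more than changed in the simulation, so these rates do not carry over to them. Among 117 members, 6 had a multiple-mapping ratio above 0, at most 0.0717. MicroRNA sites were sought in the longest transcript of each protein-coding gene of the RefSeq annotation, TAIR10.1. Alternatives were pseudocounts of 0.1 and 5, no filter, a filter at 5 RPKM, quantile scaling, equal library totals, a constant prior, a replicate block, a limit of 0.1 on the multiple-mapping ratio, and leaving out each library.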

Additional observations from a re-analysis of the deposited data

How the results depend on the processing

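The 37 calls among the members were the same with pseudocounts of 0.1 and 5, quantile scaling and a constant prior. A filter at 5 RPKM left 28 members, of which 7 were higher and 9 lower; the suberin group kept 3 lower of 3 tested, and the secondary wall group 0 of 1. With equal library totals 7738 genes were higher and 3503 lower. Leaving out 1 library gave 8 to 15 higher and 18 to 26 lower members, beside 3515 to 5515 and 3975 to 6061 over all genes. MYB33 reached 0.09 log2 units with equal totals and ran from -0.12 to 0.01 when 1 library was left out, above 0 without RNAi replicate 1, and was never called. The replicate numbers did not pair the samples (correlations of deviations -0.0642, 0.0928 and 0.0198); with the replicate block 13 members were higher and 21 lower, with MYB10 at -0.35 log2 units (limma adjusted p = 0.0555), MYB32 (0.0547), MYB70 (0.0545) and MYB107 (0.0511) losing the call and MYB13 gaining it. Without any filter 34 members were called, 27 of them among the 37; MYB10, MYB12, MYB25, MYB40, MYB51, MYB66, MYB70, MYB74, MYB107 and MYB3R4 were lost. The cause was not tested. Depth limits the 21 members under 3 estimated reads in every library.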
